A study of Mus musculus with 14 samples.

Results

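Hearts of mouse embryos of genotype Irx3-/-;Irx5+/- (4 arrays) were compared with hearts of genotype Irx5+/- (3 arrays). By these genotypes, the first lacked Irx3, the second kept both copies of it, and both kept 1 working copy of Irx5. Whether both groups carried the same Irx5 allele is not given. These 7 of the series' 14 arrays were chosen by the genotype in their titles. All hearts were taken at E12.5, an embryonic stage at which the chambers of the heart have formed, and each array measured RNA from heart on a whole-transcript mouse array, after amplification from 1 ng of total RNA. The series takes Irx5+/- as its reference, and its title asks where Irx3 and Irx5 act together or against each other in the heart. The other 7 arrays held Irx5-/- hearts (3 arrays) and Irx3-/-;Irx5-/- hearts (4 arrays), and they are used here where loss of Irx3 is set beside the same loss in hearts with no Irx5, as a check of the probe sets and, in the fit over all 14 arrays, for the estimate of each gene's spread. Strain, allele design and the number of embryos behind an array are not given in the sources consulted. The p-values below therefore cover the spread among arrays alone, and that spread may be technical. A wild-type heart with both copies of Irx5 is not among these groups.

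Irx3 and Irx5 lie side by side in the genome and code for Iroquois proteins, transcription factors with a homeodomain. In the mouse heart Irx3 is known from the inner, trabeculated layer of the ventricles and from the fast conduction system, where it favours Gja5, the connexin gene of fast-conducting fibres, and restrains Gja1, the connexin gene of working muscle. Irx5 is known from the ventricle wall and the endocardium and for its restraint of the potassium channel gene Kcnd2. Bmp10, a growth factor gene of the trabeculae and the atria, is among the genes that Iroquois factors are known to regulate.

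Array Irx3-/-;Irx5+/- replicate 4 has a description that names Irx5-/- in place of the genotype in its title. It was kept by its title, and results that rest on it are given without it as well. Correlations across all probe sets put this array at 0.980 to 0.985 with the other 3 arrays of its titled genotype, at 0.976 to 0.984 with the 3 Irx5-/- arrays, at 0.972 to 0.984 with the 3 Irx5+/- arrays and at 0.975 to 0.985 with the 4 Irx3-/-;Irx5-/- arrays. These ranges overlap, and the highest value (0.9852) was with an Irx3-/-;Irx5-/- array, next to 0.9851 with an array of its titled genotype. Array Irx5+/- replicate 3 stood apart along the first principal component of the 7 arrays (28.2% of the variance), at 37.9 against -24.1 to 11.4 for the other 6 arrays. All 7 marker genes of heart muscle (such as Tnnt2, Actc1 and Nkx2-5) lay between 8.56 and 13.73 on the log2 signal scale in the 7 arrays. This was above every array's median (7.89 to 7.99), and the 4 liver and lung markers lay below it, between 6.07 and 7.69. Signal above the median does not by itself show a cell type. By their mean, 1 of 3 skeletal muscle, 1 of 2 measured neuron and 1 of 4 macrophage markers were also above it. By Xist and 3 Y-linked genes, 2 of 3 Irx5+/- arrays and 3 of 4 Irx3-/-;Irx5+/- arrays came from female embryos.

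The targeted genes came first. Irx3 probe-set signal (chromosome 8) was 8.43, 8.53 and 8.44 log2 units in Irx5+/- replicates 1 to 3 and 7.87, 7.89, 7.93 and 8.17 in Irx3-/-;Irx5+/- replicates 1 to 4. Every array without Irx3 was below every reference array, and replicate 4, the array with the conflicting description, was the highest of its group. The log2 difference was -0.50 ± 0.10 (SE), a 1.41-fold lower signal, with a limma adjusted p of 0.707 over 21776 probe sets and rank 2 by p among them. By an exact 2-sided permutation test over the 7 arrays p was 0.0571, the smallest that 35 splits allow. Without replicate 4, an array set in which 4.18% of all probe sets lay wholly above the reference arrays and 4.74% wholly below, the difference was -0.57, and the exact permutation p of 0.1 is the smallest that 20 splits allow. In Irx5-/- hearts, Irx3 signal was 8.25, 8.14 and 8.19, and the 8.17 of replicate 4 lay inside this range.

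Irx5 signal was 8.19, 8.41 and 8.37 in Irx5+/- arrays and 8.31, 8.21, 8.21 and 8.32 in Irx3-/-;Irx5+/- arrays. The groups overlapped, and the difference of -0.06 ± 0.18 was within the spread (exact permutation p = 0.4). In Irx5-/- arrays the same probe set still gave 7.86, 8.34 and 7.91, so the probe set did not separate genotypes at Irx5. The labels do not tell whether probes of either gene fall inside its deletion. Of the other Iroquois genes, Irx1 differed by -0.14 ± 0.13, Irx2 by 0.15 ± 0.12, Irx4, a marker of ventricular muscle, by 0.23 ± 0.32 and Irx6 by -0.02. For Irx4 and Irx6 the sign turned when 1 array was left out: without Irx5+/- replicate 3 they were at -0.08 and 0.02.

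**Figure D1:**
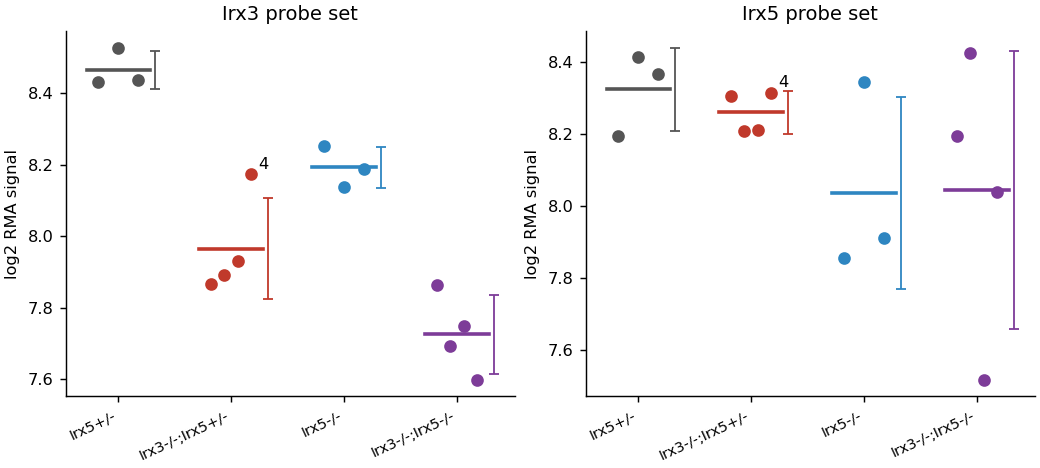
Log2 signal of the Irx3 probe set (left) and the Irx5 probe set (right) by genotype; each point is 1 array, the horizontal line is the group mean, the bar beside it is ± 1 SD, and 4 marks the array with the conflicting description. For Irx3, all 4 Irx3-/-;Irx5+/- points (7.87 to 8.17) lie below the 3 Irx5+/- points (8.43 to 8.53), and for Irx5 these groups overlap.

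The 2 genotypes were compared across all 21776 probe sets with 1 gene symbol (19931 genes), with limma on log2 signal and Benjamini-Hochberg adjustment. At an adjusted p under 0.05, 0 probe sets (0%) passed, and the smallest adjusted p was 0.707. At an unadjusted p under 0.05, 619 probe sets were higher without Irx3 (2.84%) and 496 were lower (2.28%), together 1115 (5.12%). Because no gene passed, the genes below are described by their values and are not called changed. Single arrays weighed on many of them: of the 89 genes chosen by the naming rules that had a difference of at least 0.5, leaving out 1 array moved 41 by over 1.5 times or turned their sign, 29 without Irx5+/- replicate 3, 22 without Irx5+/- replicate 1 and 1 (Lrrn4) without Irx3-/-;Irx5+/- replicate 4. Ptchd1 was the exception in 1 setting: without Irx5+/- replicate 2 it was at -1.51 with a limma adjusted p of 0.034.

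The 12 higher genes with the smallest p differed by 0.42 to 0.89 log2 units, all at an adjusted p of 0.707. Grpel1, a co-chaperone of protein import into mitochondria, had signals of 9.21, 9.16 and 8.93 in Irx5+/- arrays and 9.63, 9.88, 9.77 and 9.82 in Irx3-/-;Irx5+/- arrays. Its groups did not overlap, and the difference was 0.67 ± 0.13. Amz2, which codes for a metallopeptidase, had 8.80, 9.06 and 8.80 against 9.75, 9.81, 9.35 and 9.68. This was 0.76 ± 0.15, again with the groups apart. Klhl23, a Kelch-like gene, had 8.34, 8.60 and 8.60 against 9.45, 8.90, 9.35 and 9.19 (0.71 ± 0.15). Fdft1, the squalene synthase of cholesterol synthesis, had 9.37, 9.32 and 9.61 against 10.30, 10.01, 9.82 and 9.92 (0.58 ± 0.13). The rest of the 12 included Stard4, which carries cholesterol between membranes (0.67 ± 0.16), Nans, an enzyme of sialic acid synthesis (0.75 ± 0.17), Mrps22, a protein of the small mitochondrial ribosomal subunit (0.80 ± 0.19), and Extl3, a glycosyltransferase of heparan sulfate synthesis (0.79 ± 0.19). Trappc10, Coprs, Siva1 and Ddt lay between 0.42 and 0.89, and Ddt alone of the 12 had overlapping groups.

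Apart from Irx3, Fen1 had the smallest p among lower genes. It codes for the flap endonuclease that trims Okazaki fragments, and its signals were 8.60, 8.62 and 8.52 in Irx5+/- arrays against 7.77, 7.85, 8.08 and 7.61 in Irx3-/-;Irx5+/- arrays. The groups did not overlap and the difference was -0.76 ± 0.15. Mrpl17, a protein of the large mitochondrial ribosomal subunit, had 9.91, 9.71 and 9.84 against 9.37, 9.08, 8.86 and 9.36. That put it at -0.65 ± 0.15. Mvk, the mevalonate kinase of cholesterol synthesis, had 8.78, 8.65 and 8.75 against 8.49, 8.34, 8.29 and 8.29 (-0.38 ± 0.09). Mis18a, which helps load the centromere histone, was at -0.95 ± 0.22 (-0.60 without Irx5+/- replicate 1, which alone was high), Rrs1, a ribosome assembly factor, at -0.63 ± 0.14, and Norad, a long noncoding RNA, at -0.42 ± 0.10. Endod1, Vps37a, Scamp2, Prorsd1 and Unk lay between -0.89 and -0.45. All 12 lower genes had groups that did not overlap, but the genes were picked by this contrast, and over all probe sets 2.89% lay wholly above and 2.84% wholly below the reference arrays.

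**Figure D2:**
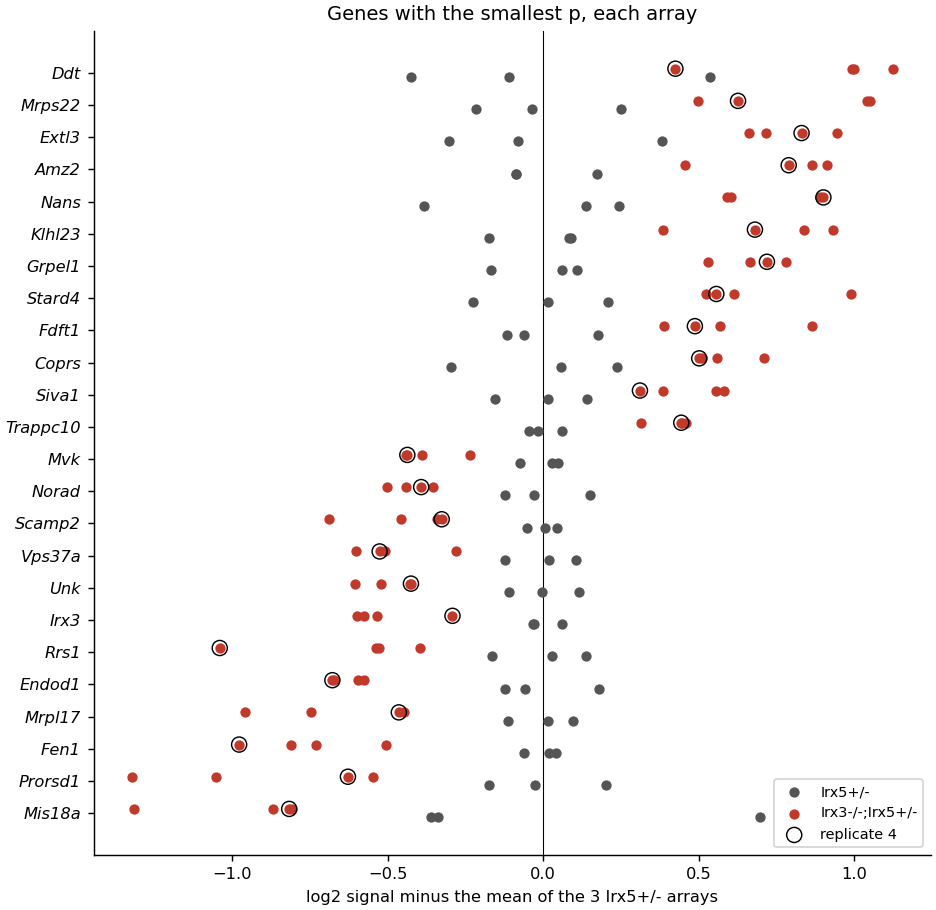
Log2 signal of each of the 7 arrays minus the mean of the 3 Irx5+/- arrays, for the 12 higher and 12 lower genes with the smallest limma p (all at an adjusted p of 0.707); grey points are Irx5+/- arrays, red points Irx3-/-;Irx5+/- arrays, and a ring marks replicate 4. Groups overlap only for Ddt among these 24 genes, which were chosen by this difference.

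Some kinds of genes, such as predicted genes and receptor families, were not named, whatever their difference. Among the other genes whose groups did not overlap, the largest differences were in those that follow. Hba-x, the embryonic zeta globin, had signals of 7.66, 7.50 and 7.51 in Irx5+/- arrays and 10.32, 7.87, 9.85 and 9.63 in Irx3-/-;Irx5+/- arrays. Replicate 2 was close to the reference arrays and the other 3 were far above them, and the difference was 1.86 ± 0.63. Popdc3, a membrane protein gene of striated muscle, had 7.73, 7.52 and 7.10 against 9.40, 8.23, 8.19 and 8.98 (1.25 ± 0.47). Rrad, a small GTP-binding protein that dampens calcium channels, was at 1.10 ± 0.39, and Hspb8, a small heat shock protein of muscle, at 1.06 ± 0.27. Ociad2, Qtrt2, Tpmt and Slc25a13 lay between 0.97 and 1.11, and without Irx5+/- replicate 3, which alone was low, Slc25a13 was at 0.42. On the lower side, Rgs4, which shortens G protein signalling, had 9.49, 8.78 and 9.48 against 7.29, 7.71, 8.64 and 7.82. It was at -1.38 ± 0.43, with replicate 3 nearest to the reference arrays. Ptprj, a receptor tyrosine phosphatase, was at -1.21 ± 0.29, but its other probe set was at 0.07. BC031361, Tmem243, Pabpc4l, Tctex1d2, Armcx5 and Creb3 lay between -1.23 and -0.98. For Tmem243, Irx5+/- replicate 1 alone was high (9.41 against 6.96 and 7.08 in the other reference arrays), as it was for Creb3 and Armcx5. Without that array Tmem243 was at -0.43, Creb3 at -0.56 and Armcx5 at -0.60. Adjusted p-values of these 16 genes ran from 0.707 to 0.979.

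Genes known to respond to Irx3 or Irx5 in the heart were next, and 8 of 9 on the list were measured. The list was chosen with earlier results of these data known, so its genes are not an independent check. Bmp10 signal was 6.15, 6.01 and 6.44 in Irx5+/- arrays and 7.75, 7.32, 6.82 and 6.38 in Irx3-/-;Irx5+/- arrays. Replicates 1 to 3 without Irx3 were above every reference array, and replicate 4 lay among them. The difference was 0.87 ± 0.30 (limma adjusted p = 0.892), and without replicate 4 it was 1.10. In hearts with no Irx5, Bmp10 was 5.82, 6.38 and 5.94 with Irx3 present and 6.74, 6.95, 7.74 and 7.10 without Irx3. There the groups did not overlap, as for 2.1% of all probe sets in the higher direction and 2.18% in the lower, and the difference was 1.08 ± 0.30 (limma adjusted p = 1.00). Replicate 4, with the conflicting description, was thus the only one of the 8 arrays titled Irx3-/- within the range of the 6 arrays with Irx3 (5.82 to 6.44). The effect of Irx3 loss in both Irx5 backgrounds differed by 0.22 ± 0.42.

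Gja5 signal was 9.99, 8.31 and 7.38 in Irx5+/- arrays and 10.63, 9.74, 9.92 and 10.08 in Irx3-/-;Irx5+/- arrays. Irx5+/- replicate 1 lay among the arrays without Irx3, and replicates 2 and 3 were low. The difference was 1.53 ± 0.48 (adjusted p = 0.849), and it was 0.94 without Irx5+/- replicate 3. Nppa, which codes for atrial natriuretic peptide, had 11.03, 8.29 and 7.82 against 11.78, 10.44, 10.09 and 9.98, a difference of 1.52 ± 0.81 with the same overlap at Irx5+/- replicate 1. It was 2.52 without that array and 0.91 without Irx5+/- replicate 3. Kcnd2 had 7.989, 8.003 and 7.908 against 8.273, 8.076, 8.225 and 8.241. Its groups did not overlap, at 0.24 ± 0.19, as for 2.89% of all probe sets in the higher direction. Gja1 was at 0.37 ± 0.30, Nppb, a second natriuretic peptide, at 0.28 ± 0.58 and without Irx5+/- replicate 3 at -0.21, Kcnip2 at 0.01 and Kcnd3 at -0.11.

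Protein binding by Iroquois factors has been described at the letters ACANNTGT, which read the same on both strands. Windows of 250 bases before the transcription start (RefSeq, GRCm38.p6) held these letters in 2074 of 32851 cases (6.31%). Of the 24 genes with the smallest p, 15 had a window in the table, and the letters were in 3 of their 18 windows (16.7%). They were in 0 of 8 windows of the known targets. A match is a description of the window and not a binding site. The windows of Irx3 (chr8:91801655-91801904, minus strand) and of Bmp10 (chr6:87428744-87428993, plus strand) are shown as those of the targeted gene and of a gene on the target list. The windows of Fen1 (chr19:10204394-10204643), Mrps22 (chr9:98601680-98601929) and Prorsd1 (chr11:29515034-29515283), all on the minus strand, are those with a match. Capitals mark the match, which begins 249, 228 and 190 bases before the start, and each sequence reads 5′ to 3′ towards the gene.
Irx3: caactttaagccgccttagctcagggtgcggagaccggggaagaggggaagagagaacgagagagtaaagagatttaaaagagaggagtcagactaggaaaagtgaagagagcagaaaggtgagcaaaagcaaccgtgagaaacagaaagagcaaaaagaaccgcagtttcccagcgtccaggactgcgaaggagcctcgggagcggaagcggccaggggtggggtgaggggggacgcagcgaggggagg
Bmp10: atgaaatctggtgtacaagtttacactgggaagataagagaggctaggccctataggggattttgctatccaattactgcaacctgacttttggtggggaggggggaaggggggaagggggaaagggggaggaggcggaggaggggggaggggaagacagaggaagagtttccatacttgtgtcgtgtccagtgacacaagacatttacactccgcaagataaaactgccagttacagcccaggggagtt
Fen1: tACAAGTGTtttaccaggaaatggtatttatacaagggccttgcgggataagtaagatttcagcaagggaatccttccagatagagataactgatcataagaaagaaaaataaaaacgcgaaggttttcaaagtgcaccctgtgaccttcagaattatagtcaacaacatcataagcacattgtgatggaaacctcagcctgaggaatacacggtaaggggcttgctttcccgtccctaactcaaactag
Mrps22: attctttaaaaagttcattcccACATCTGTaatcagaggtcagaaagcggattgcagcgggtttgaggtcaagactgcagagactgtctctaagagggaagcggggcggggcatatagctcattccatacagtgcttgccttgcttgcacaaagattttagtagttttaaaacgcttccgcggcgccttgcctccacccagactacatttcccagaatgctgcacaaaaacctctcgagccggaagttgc
Prorsd1: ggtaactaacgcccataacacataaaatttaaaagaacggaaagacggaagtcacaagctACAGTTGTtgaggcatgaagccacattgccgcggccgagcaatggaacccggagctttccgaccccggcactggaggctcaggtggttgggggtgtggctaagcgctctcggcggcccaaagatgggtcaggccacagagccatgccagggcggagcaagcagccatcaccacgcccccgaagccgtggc
These windows show no more than where the letters lie: the 3 genes with a match differed by -0.76 (Fen1), 0.80 (Mrps22) and -0.89 (Prorsd1), that is, in both directions.

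Genes of heart muscle were higher as a group, but the group followed single arrays. Of 31 measured sarcomere genes, 30 had a log2 difference above 0, against 50% of all probe sets, with a median of 0.90 against 0.00 over all probe sets. At an unadjusted p under 0.05, 15 were higher (48.4% of the list, against 2.84% of all probe sets) and 0 passed after adjustment. None had groups that did not overlap. Tnni1, the slow skeletal troponin I that the embryonic heart uses, had 11.57, 10.63 and 10.13 in Irx5+/- arrays and 12.06, 11.89, 11.18 and 11.88 in Irx3-/-;Irx5+/- arrays (0.98 ± 0.32). Smyd1, a methyltransferase needed for thick filaments, had 9.60, 8.46 and 7.58 against 9.94, 9.62, 9.17 and 9.78 (1.09 ± 0.37). Myl7, the atrial light chain, was at 0.97 ± 0.33 and Cryab, a chaperone of desmin, at 1.01 ± 0.35. In each of these, Irx5+/- replicate 3 was the lowest array, as it was for 28 of the 31 genes.

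The mean of the sarcomere list, relative to the 7-array mean, was 0.38, -0.43 and -1.29 in Irx5+/- arrays and 0.65, 0.34, -0.13 and 0.49 in Irx3-/-;Irx5+/- arrays. Irx5+/- replicate 1 was above 2 of the 4 arrays without Irx3. Without Irx5+/- replicate 3 the list's median was 0.38, and without Irx5+/- replicate 1 it was 1.36. Fewer muscle cells and less muscle RNA per cell cannot be told apart in such bulk samples.

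**Figure D3:**
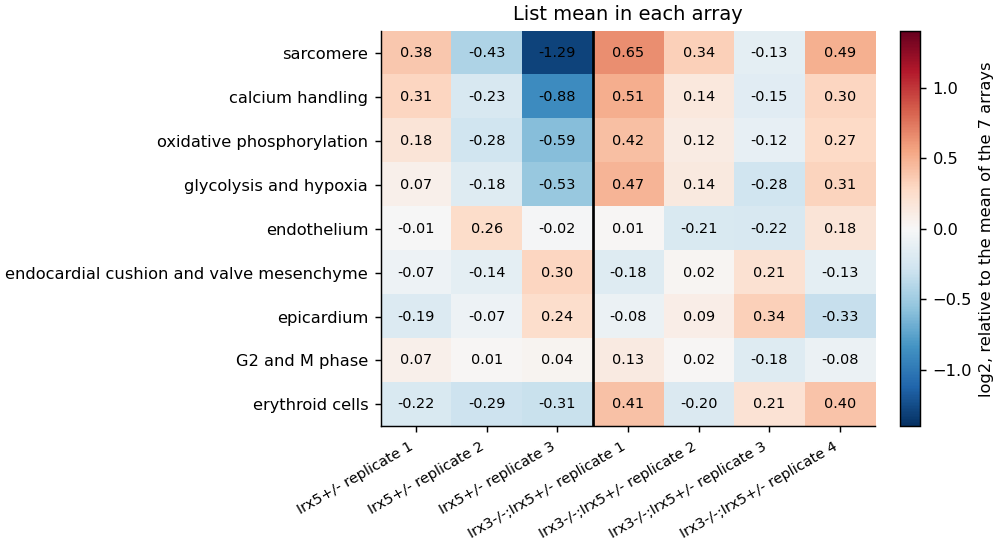
Mean of each gene list in each of the 7 arrays on the log2 scale, relative to the mean of the 7 arrays; rows are lists, columns are arrays, and the black line separates Irx5+/- (left) from Irx3-/-;Irx5+/- (right). The sarcomere, calcium, oxidative phosphorylation and glycolysis lists are lowest in Irx5+/- replicate 3 and highest in Irx3-/-;Irx5+/- replicate 1.

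Calcium handling genes lay the same way, with 14 of 16 above 0 and a median of 0.52. Pln (phospholamban), the brake on the calcium pump, had 12.31, 11.15 and 9.74 against 12.41, 12.20, 11.79 and 12.45 (1.14 ± 0.48). Jph2, which ties the cell membrane to the calcium store, was at 0.72 ± 0.31, and Hrc, a calcium-binding protein of that store, at 0.86 ± 0.37. Fkbp1b, a subunit of the calcium release channel, went the other way, at 8.48, 8.36 and 9.14 against 8.36, 7.77, 8.29 and 7.65 (-0.64 ± 0.28). Its groups were apart by no more than 8.3554 against 8.3551, and without Irx5+/- replicate 3 it was at -0.40. The list's median was 0.16 without Irx5+/- replicate 3 and 0.80 without Irx5+/- replicate 1.

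Ion channel genes of the action potential were nearer to 0, with 17 of 25 above it, a median of 0.09 and 0 at an unadjusted p under 0.05. Groups did not overlap in 3 of the 25, all higher (2.89% over all probe sets), among them Kcnj8 (0.23 ± 0.16). Of 16 connexin and intercalated disc genes 9 were above 0 (median 0.03), and apart from Gja5 the smallest p belonged to Tjp1, a scaffold of cell junctions (-0.17 ± 0.10), Cdh2, the cadherin of the disc (0.41 ± 0.23), and Gja3 (0.19 ± 0.11).

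By region of the heart, ventricular genes had a median of 0.45 (10 of 11 above 0), atrial genes 0.18 (9 of 14), trabecular genes 0.26 (10 of 14) and compact layer genes 0.16 (8 of 11). Leaving out 1 array moved each of these by over 1.5 times: the ventricular median lay between 0.20 (without Irx5+/- replicate 3) and 0.72 (without Irx5+/- replicate 1), the atrial between 0.07 (without Irx5+/- replicate 2) and 0.29 (without Irx5+/- replicate 3). The trabecular median lay between 0.09 (without Irx3-/-;Irx5+/- replicate 1) and 0.40 (without replicate 3 of that group), and the compact layer median between 0.05 (without its replicate 4) and 0.20 (without its replicate 3). Myh7, the beta myosin heavy chain, was at 0.96 ± 0.41, and Myl4, the atrial light chain, at 1.04 ± 0.38. Both also belong to the contractile apparatus and had their lowest value in Irx5+/- replicate 3 (10.33 and 10.72). Hey2, a compact layer factor, was at 0.55 ± 0.50 and Ccnd1, a G1 cyclin, at 0.16 ± 0.13. In the list of atrioventricular canal and conduction genes, 9 of 18 were above 0 with a median of 0.00, and Gja5 was the one gene with an unadjusted p under 0.05. Cardiac transcription factors had a median of 0.06 (14 of 24), with 0 at an unadjusted p under 0.05. Their smallest p belonged to Tead1 (0.21 ± 0.11), Tbx20 (0.25 ± 0.18, and 0.15 without Irx3-/-;Irx5+/- replicate 4), Gata5 (-0.28 ± 0.22) and Hopx (0.57 ± 0.44).

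Energy metabolism lists were higher with the sarcomere list. All 29 measured genes of oxidative phosphorylation were above 0 (median 0.31), 5 of them at an unadjusted p under 0.05 (17.2% of the list, against 2.84% of all probe sets) and 0 after adjustment. Cox6a2, a muscle form of a cytochrome c oxidase subunit, had 9.65, 9.57 and 8.68 against 10.75, 10.45, 9.32 and 10.43 (0.94 ± 0.37), and Uqcrfs1, the Rieske protein of complex III, was at 0.64 ± 0.27. In 25 of the 29 genes Irx5+/- replicate 3 was the lowest array, and in 25 Irx3-/-;Irx5+/- replicate 1 was the highest. Without Irx5+/- replicate 3 the median was 0.16.

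Fatty acid genes had a median of 0.34 (18 of 23 above 0) and glycolysis and hypoxia genes 0.32 (20 of 22); without Irx5+/- replicate 3 these were 0.14 and 0.18, and without Irx5+/- replicate 1 they were 0.53 and 0.47. Cd36, a fatty acid carrier, had 7.98, 8.04 and 7.33 against 8.90, 8.43, 8.54 and 9.06. Decr1, an enzyme of unsaturated fatty acid oxidation, had 10.15, 9.97 and 10.10 against 10.92, 10.42, 10.59 and 10.54. Both had groups that did not overlap, at 0.95 ± 0.37 and 0.55 ± 0.17. Of the 23 fatty acid genes, 3 lay wholly above the reference arrays (2.89% over all probe sets). Egln3, a prolyl hydroxylase of the hypoxia response, was at 0.70 ± 0.27 and Pgam2, a muscle phosphoglycerate mutase, at 1.16 ± 0.49.

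Mitochondrial import and folding genes included the gene with the smallest p among higher genes (Grpel1). Of 26, 22 were above 0 with a median of 0.21, and 3 lay wholly above the reference arrays (2.89% over all probe sets), namely Grpel1, which was picked by this contrast, Timm22 and Timm23. Timm22, the channel for carrier proteins of the inner membrane, had 7.95, 8.26 and 8.28 against 8.93, 8.73, 8.71 and 8.38 (0.53 ± 0.16). Timm23, the channel for matrix proteins, had 10.98, 10.81 and 10.82 against 11.26, 11.33, 11.01 and 11.32 (0.36 ± 0.14). In Irx5-/- hearts the loss of Irx3 left them at 0.17 and 0.06. Without Irx5+/- replicate 3 the list's median was 0.12.

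In cholesterol synthesis, 12 of 20 genes were above 0 (median 0.05). At an unadjusted p under 0.05, Fdft1, Lss (0.38 ± 0.14) and Sc5d (0.56 ± 0.19) were higher (15.0% of the list, against 2.84% of all probe sets). Mvk was lower (5.0%, against 2.28%). Fdft1 and Mvk were picked by this contrast. Kelch-like genes had a median of 0.10 (23 of 34 above 0). Klhl23, picked by this contrast, and Klhl31, a muscle gene (1.16 ± 0.46), were higher at an unadjusted p under 0.05 (5.88% of the list, against 2.84%). For Klhl31, Irx5+/- replicate 1 lay among the arrays without Irx3. Its difference was 0.64 without Irx5+/- replicate 3 and 1.80 without Irx5+/- replicate 1.

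**Figure D4:**
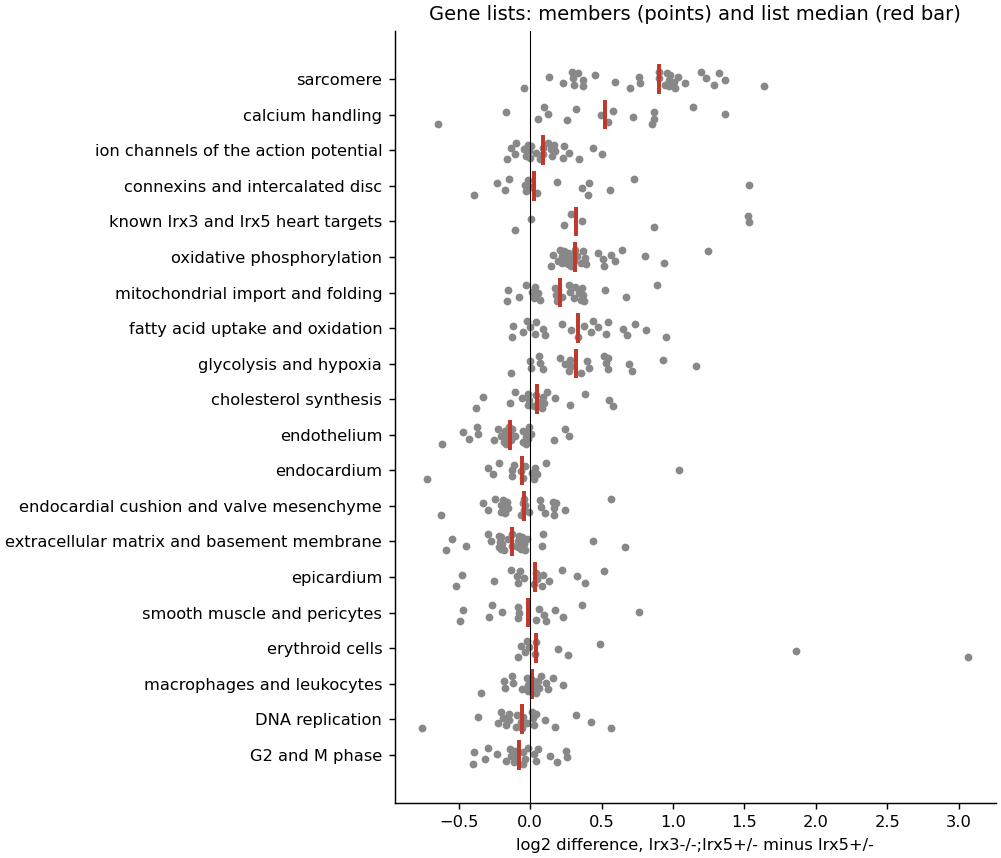
Log2 difference between Irx3-/-;Irx5+/- and Irx5+/- for each member of 20 gene lists; each grey point is a gene and the red bar is the list median. The sarcomere list has the highest median (0.90) among the lists shown and the endothelium list the lowest (-0.14).

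Endothelial genes lay below 0 in 26 of 30 cases, with a median of -0.14. At an unadjusted p under 0.05, 3 were lower (10.0% of the list, against 2.28% of all probe sets), and 0 passed after adjustment. Ets1, a transcription factor of vessel growth, had 10.69, 10.49 and 10.51 in Irx5+/- arrays and 10.13, 9.98, 10.00 and 10.27 in Irx3-/-;Irx5+/- arrays, with the groups apart (-0.47 ± 0.12). Cd34, a surface mucin of endothelium, had 11.50, 11.69 and 11.64 against 10.93, 10.87, 11.24 and 10.95, also apart (-0.61 ± 0.24). Of the 30 genes, 2 lay wholly below the reference arrays (2.84% over all probe sets). Sox18 was at -0.43 ± 0.19. The list's mean was highest in Irx5+/- replicate 2 (0.26), and without that array the median was 0.00, so the shift rested on it. The markers Pecam1, Cdh5, Kdr, Tek and Emcn lay between 9.78 and 12.08 in the 7 arrays.

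Endocardium (median -0.06, 6 of 16 above 0), cushion mesenchyme (-0.04, 9 of 26), epicardium (0.03, 10 of 18) and macrophages (0.01, 10 of 19) had 0 genes at an unadjusted p under 0.05. Hapln1, which links hyaluronan in the cushions, had 9.81, 9.89 and 10.74 against 9.23, 9.28, 9.68 and 9.51, with the groups apart (-0.72 ± 0.35). In the epicardium list, Krt19 (0.52 ± 0.31) and Msln (0.39 ± 0.23) lay wholly above the reference arrays and Lrrn4 (-0.52 ± 0.48) wholly below. Over all probe sets, 2.89% lay wholly above and 2.84% wholly below. Lrrn4 was lowest in replicate 4, and without that array it was at -0.30. Extracellular matrix genes had a median of -0.13, with 24 of 28 below 0. Hmcn1, which codes for hemicentin 1, had 12.80, 12.81 and 12.79 against 12.55, 12.49, 12.70 and 12.67. The groups did not overlap although the difference was small (-0.20 ± 0.09). Tnc (tenascin C) had 8.22, 8.21 and 8.12 against 8.80, 8.68, 9.16 and 8.75, with the groups apart in the other direction (0.66 ± 0.37).

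Smooth muscle and pericyte genes had a median of -0.02. At an unadjusted p under 0.05, Notch3 (-0.49 ± 0.23) and Smtn (-0.27 ± 0.12) were lower, which was 2 of 16 genes, against 2.28% of all probe sets. Des, the muscle intermediate filament gene (0.76 ± 0.30), was higher, which was 1 of 16, against 2.84%. Notch3 was at -0.28 without Irx5+/- replicate 3, and Smtn at -0.16 without Irx5+/- replicate 2. Skeletal muscle lineage genes (median -0.04), neural crest and neuron genes (-0.04) and liver, lung and gut genes (0.02) had none at an unadjusted p under 0.05.

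Erythroid genes had a median of 0.04 and a mean of 0.48 over 12 measured genes, and the embryonic globins Hbb-y and Hba-x differed widely between arrays. Hbb-y, the embryonic epsilon-y globin, had 8.57, 6.94 and 7.89 in Irx5+/- arrays and 11.83, 7.87, 11.95 and 11.84 in Irx3-/-;Irx5+/- arrays. Replicate 2 lay among the reference arrays and the other 3 far above them. Replicate 2 was also the lowest of its group for Hba-x, though there it was above the reference arrays. The difference of 3.07 ± 1.10 was the largest of all genes (adjusted p = 0.904). Hbb-bh1, another embryonic globin, did not share this pattern, at 5.58, 5.74 and 5.53 against 6.44, 5.60, 5.73 and 5.74 (0.26 ± 0.62). The erythroid marker Alas2 was at 8.11 and 8.09 in the group means, and Slc4a1, the anion exchanger of red cells, was at 0.19 ± 0.10. Whether the amount of blood in the samples moved with the globins was not tested.

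Cell cycle lists were near 0 (DNA replication -0.06 over 23 genes, G2 and M phase -0.08 over 22). Cenpe, the centromere motor, had 9.90, 9.92 and 10.05 against 9.69, 9.55, 9.49 and 9.48 (-0.40 ± 0.11). Its groups were apart, as for 2.84% of all probe sets in the lower direction. Mki67 was at -0.39 ± 0.12, Tacc3, a spindle protein, at -0.29 ± 0.11, and Mcm2, a subunit of the replication helicase, at -0.36 ± 0.17. Cdc6, which loads that helicase, was at 0.57 ± 0.18, and Rrm2, a subunit of ribonucleotide reductase, at 0.42 ± 0.19. Below 0 were 15 of 22 genes of G2 and M phase and 14 of 23 replication genes.

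Signalling lists were centred near 0. BMP and TGF-beta genes had a median of 0.01 (16 of 30 above 0), with Bmp10 the one gene at an unadjusted p under 0.05. The next were Bmp5 (0.58 ± 0.43), Bmp6 (0.17 ± 0.13) and Bambi, a decoy receptor (0.18 ± 0.15). Notch genes had a median of 0.00, with Jag1, a ligand, at -0.52 ± 0.35, and Hey1, a target, at 1.04 ± 0.76. Hey1 was 9.44, 9.66 and 9.80 in Irx5+/- arrays and 9.54, 10.01, 13.66 and 9.49 in Irx3-/-;Irx5+/- arrays, so 1 array made its difference. Hedgehog genes (median 0.01, 9 of 15 above 0) had none at an unadjusted p under 0.05, and Wnt genes (median -0.06, 9 of 27) had none either, with Fzd1, a receptor, nearest at -0.62 ± 0.30. Immediate early genes had a median of -0.12 (7 of 20 above 0). In the list of heat shock and unfolded protein genes (median -0.03), Hspb1 (0.96 ± 0.37) and Dnajb1 (0.27 ± 0.11) were higher at an unadjusted p under 0.05. This was 11.1% of the list, against 2.84% of all probe sets. Hspb1 had overlapping groups, and it was at 0.53 without Irx5+/- replicate 3 and at 1.46 without Irx5+/- replicate 1.

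Genes next to Irx3 and Irx5 on chromosome 8 were set apart, since they lie near the mutated genes. Of 18 measured, 11 were above 0 (median 0.04). Bbs2, a ciliary protein gene, had 7.89, 8.15 and 7.85 against 8.35, 8.24, 8.25 and 8.45, with the groups apart (0.36 ± 0.11). Crnde, a noncoding RNA gene beside Irx5, had 7.51, 7.91 and 7.84 against 8.35, 7.92, 9.08 and 8.16, also apart (0.63 ± 0.24). Of the 18 genes, 2 lay wholly above and 1 wholly below the reference arrays (2.89% and 2.84% over all probe sets). Aktip was at -0.46 ± 0.18, with Irx3-/-;Irx5+/- replicates 3 and 4 among the reference arrays, and Lpcat2 at -0.27 ± 0.14. In Irx5-/- hearts, loss of Irx3 put Bbs2 at -0.26, Crnde at 0.36, Aktip at 0.00 and Lpcat2 at 0.00.

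Loss of Irx3 was then read in hearts with no Irx5, from 7 arrays that do not enter the differences of the first comparison. Both comparisons take each gene's spread from all 14 arrays, so their SEs are the same and their p-values are not separate. Across 19931 genes, the log2 differences in both backgrounds had a Pearson r of 0.12 and a Spearman rho of 0.07, and genes are not independent replicates. In that second comparison 0 probe sets passed an adjusted p under 0.05, and 837 (3.84%) had an unadjusted p under 0.05. Irx3 itself was at -0.47 ± 0.10 there, from 8.25, 8.14 and 8.19 with Irx3 to 7.86, 7.69, 7.75 and 7.60 without it. The interaction, which tests whether the effect of Irx3 loss differs between the backgrounds, also had 0 probe sets at an adjusted p under 0.05 (890 unadjusted, 4.09%), and for Irx3 it was 0.03 ± 0.14.

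The genes with the smallest p, Irx3 aside, had smaller differences there. They were picked by the first comparison, and such a choice alone gives smaller differences in other arrays. The drop therefore does not tell whether Irx5 mattered. Of the 12 higher genes, 9 were also above 0 in hearts with no Irx5, as were 11571 of all 21776 probe sets. The 12 had a median of 0.12 there against 0.69, and 0 of them had an unadjusted p under 0.05 there. Of the 12 lower genes, 6 were also below 0, with a median of -0.01 against -0.56, and Irx3 alone had an unadjusted p under 0.05. In Irx5-/- against Irx5+/- hearts, which shares the reference arrays, the 12 higher genes lay between 0.31 and 1.19 and the 12 lower genes between -0.52 and -0.15. The sarcomere list had a median of 0.28 in hearts with no Irx5, oxidative phosphorylation 0.13, and endothelium -0.02.

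**Figure D5:**
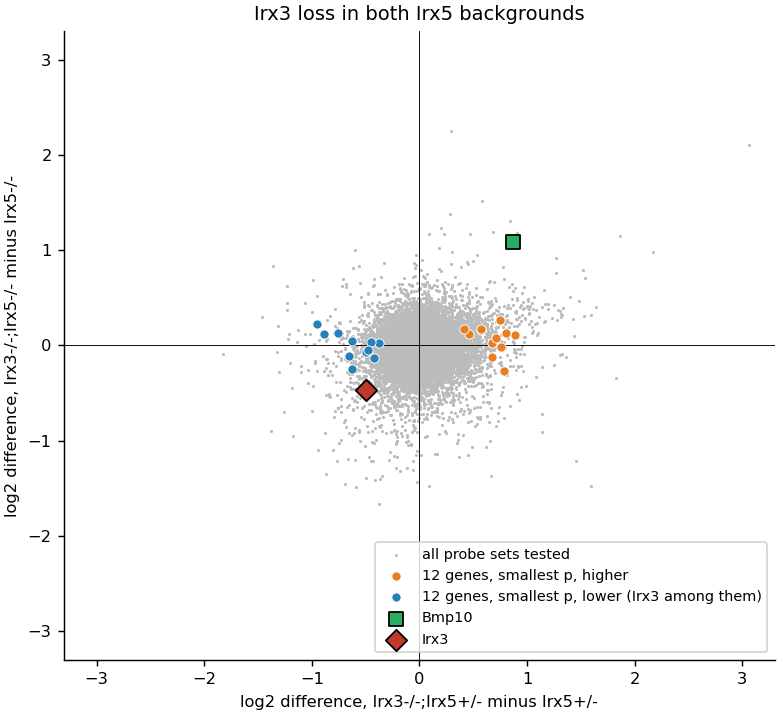
Log2 difference for loss of Irx3 in hearts with 1 copy of Irx5 (x axis) and in hearts with none (y axis), with no array in the differences of both axes; each grey point is 1 probe set. Irx3 (-0.50 and -0.47) and Bmp10 (0.87 and 1.08) lie off both axes, while the other 23 genes with the smallest p lie between -0.26 and 0.27 on the y axis. These 23 were chosen by their p in the x axis comparison.

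Of the 1115 probe sets with an unadjusted p under 0.05, 39 (3.50%) also had one in hearts with no Irx5 with the same sign (27 of these as the gene's probe set of highest mean), and 24 (2.15%) with the opposite sign. Over all probe sets these shares were 2.03% and 1.82%, and the p-values share their estimate of spread. Ranked by the larger of both p-values, the first genes were Irx3, Polr3c, Bmp10, Mrap, Zfp398 and Il1rap, a ranking chosen after the values were seen. Polr3c, a subunit of RNA polymerase III, had 8.48, 8.62 and 8.33 in Irx5+/- arrays and 8.72, 8.73, 8.73 and 8.93 in Irx3-/-;Irx5+/- arrays (0.30 ± 0.10). With no Irx5 it had 8.83, 8.69 and 8.71 against 9.02, 8.98, 9.11 and 9.16 (0.32 ± 0.10). Both comparisons had groups apart.

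Il1rap, a subunit of the interleukin 1 receptor, had 8.40, 8.38 and 9.03 against 8.14, 7.77, 8.08 and 8.06 with 1 Irx5 copy (-0.59 ± 0.17). With none it had 8.36, 8.86 and 8.49 against 8.34, 7.89, 8.10 and 8.09 (-0.47 ± 0.17), again without overlap. Of all probe sets, 2.84% lay wholly below with 1 Irx5 copy and 2.18% with none. Mrap, an accessory protein of the ACTH receptor, was at 0.27 and 0.31, and Zfp398, a zinc finger gene, at 0.41 and 0.34. Cd34 also kept its sign, at -0.61 and -0.68, though in hearts with no Irx5 its arrays overlapped (10.54 to 11.79 with Irx3 and 10.35 to 10.98 without). Embryonic globins were variable there too, with Hbb-y at 8.99, 6.79 and 6.88 against 8.62, 11.84, 10.58 and 7.60, and Hba-x at 7.47, 7.41 and 7.32 against 7.82, 10.51, 8.38 and 7.51. Hba-x was named because its groups were apart with 1 Irx5 copy. With none they were apart again, by 7.51 against 7.47, as for 2.1% of all probe sets in the higher direction.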

How the data were processed

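The deposited values are log2 signal per probe set, made by the authors with RMA in the R package affy, all arrays in 1 run, per the file headers. Per the file headers, the authors dropped probe sets whose group means were all 3.0 or lower and used limma with Benjamini-Hochberg adjustment. Versions and genome build: not given in the sources used here. RMA's quantile step gives arrays 1 distribution, so a shift of most genes at once would not show.

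Of 28763 probe sets, 21776 had 1 gene symbol, 1592 several and 5395 none, and 21685 of the first were matched by gene ID to RefSeq names (GRCm38.p6). These 21776 were fitted with limma 3.58.1 (R 4.3.3) as deposited, with 4 group means over all 14 arrays (10 residual and 3.24 prior degrees of freedom), 2-sided, Benjamini-Hochberg adjusted over all of them, threshold 0.05. Arrays are not counts, so their number limits the precision, with a median SE of 0.141 log2 units. A gene was given by its probe set with the highest mean. Named were Irx1 to Irx6, the 12 genes per direction with the smallest p, the 8 per direction with the largest difference among groups that do not overlap, known targets, and up to 4 members per list by p; predicted genes and receptor families were not named. The genotypes compared and the 38 gene lists were chosen with earlier results of these data known, so lists are described by counts and medians only. The procedure was tested on simulated data. Alternatives were fits on 7 arrays, other probe sets and filters, array weights, replicate block, sarcomere mean or sex as a term, array medians, and each array left out.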

Additional observations from a re-analysis of the deposited data

Results flagged for a closer look

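In groups of 4 arrays, 257 sets of values were checked for 1 array far from the rest, and 10 had one (a gap to the nearest array beyond Dixon's limit as a share of the range), where chance gives about 1 in 20. The largest gaps in log2 units were in Hbb-y, where Irx3-/-;Irx5+/- replicate 2 was at 7.87 and the others at 11.83 to 11.95, and in Hey1, where replicate 3 was at 13.66 and the others at 9.49 to 10.01. Replicate 4, the array with the conflicting description, was the far one in Lrrn4 (7.81, others 8.65 to 8.74), Polr3c (8.93, others 8.72 to 8.73) and the mean of the smooth muscle and pericyte list (-0.12, others 0.02 to 0.05). Replicate 3 was the far one in Lbh (11.60, others 11.97 to 12.02) and Klhl41 (8.13, others 8.92 to 9.08). Replicate 1 was the far one in Trappc10 (8.74, others 8.87 to 8.89) and Hbb-bh1 (6.44, others 5.60 to 5.74), and replicate 2 in Mis18a (7.31, others 7.76 to 7.82).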

How the results depend on the processing

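Leaving out each array in turn gave 0 to 1 called genes (1 without Irx5+/- replicate 2, Ptchd1), Irx3 at -0.57 to -0.47, the sarcomere median at 0.38 to 1.36, oxidative phosphorylation at 0.16 to 0.46 and endothelium at -0.21 to 0.00. Every setting but that without Irx5+/- replicate 2 called 0 genes. The share of probe sets at an unadjusted p under 0.05 ran from 4.12% (897, without Irx3-/-;Irx5+/- replicate 1) to 6.51% (1418, with array weights). The fit on all probe sets, with or without a symbol, had 1422 (4.94%). The interaction called 0 in each setting in which it was fitted, which leaves out the fit on 7 arrays. Without both Irx5+/- replicate 3 and Irx3-/-;Irx5+/- replicate 4 the sarcomere median was 0.27, and the smallest adjusted p was 0.0697. When the sarcomere mean entered the fit, the median of oxidative phosphorylation was -0.062, calcium handling -0.22, ventricular genes -0.082, fatty acid genes -0.066, glycolysis and hypoxia -0.093, mitochondrial import -0.059 and epicardium 0.58. In that fit Irx4 was at -0.35, Irx6 at 0.058, Gja1 at -0.20, Nppa at -0.011 and Nppb at -0.82. Signs also turned for Irx4 (-0.080 to 0.44 over the arrays left out, -0.054 without both arrays), Irx6 (-0.12 to 0.062, and 0.028 without both), Nppb (-0.21 to 0.69 over the arrays left out, the lowest without Irx5+/- replicate 3, and -0.091 without both), Kcnip2 (-0.033 to 0.046, and -0.014 with array medians subtracted) and Ptprj (0.066 by its other probe set). The causes were not tested. Of 721 list medians under these settings, 27 moved by more than the spread between arrays. That spread includes the arrays that stood apart. It was 0.59 for the sarcomere list, whose fall from 0.90 to 0.38 without Irx5+/- replicate 3 stayed within it. Fits on 7 arrays or on all probe sets leave the medians as they were, so few moves do not show that the lists were steady. Over all settings 936 of 954 values of single genes kept their sign and side of the threshold. Most of these genes were picked with groups apart, so leaving out 1 array could not turn their sign. Fits on 7 arrays or on all probe sets leave the differences unchanged, and no gene was near the threshold in the main fit. The count of values kept is therefore no measure of stability.

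Arrays of both groups share replicate numbers, and same-numbered arrays deviated together only weakly (correlations of 0.13, 0.01 and 0.15 for replicates 1 to 3). Arrays with unlike numbers lay between -0.13 and 0.07, so replicates 1 and 3 were above all of these. The labels state no pairing, and the numbers were not read as pairs. With the replicate block 0 genes were called (990 at an unadjusted p under 0.05), Irx3 was at -0.51 and Irx6 at 0.018, and the block changed no other call.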
